A study of Mus musculus with 6 samples.

Results

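The major urinary proteins, encoded by the Mup genes, are described here in mouse liver through 10 members of the family. They are the rows named Mup1, Mup2, Mup3, Mup7, Mup11, Mup12, Mup17, Mup19, Mup20 and Mup21, which are 10 of the 30889 genes in the deposited table. Polyadenylated liver RNA was sequenced in 2 groups of 3 libraries, after 14 days of treatment by mouth. The control group was given phosphate buffer saline, and the extract group a water extract of Emilia sonchifolia, a herb of the daisy family. The labels give no strain, sex, age or dose. Nor do they tie each library to an animal of its own, and the p-values measure only how far these libraries spread, which may be technical.

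Major urinary proteins are small lipocalins, secreted proteins whose barrel-shaped pocket holds volatile pheromones. Hepatocytes make them in large amounts, the kidney passes them into urine, and there they carry the scent marks by which mice recognise each other. Their transcription in liver is known to depend on growth hormone pulses acting through the factor STAT5b, with further input from androgens, glucocorticoids and thyroid hormone, and in many strains it is higher in males. The genes lie in one cluster on chromosome 4, in which a central run of copies is nearly identical and a few outer genes have diverged. MUP20, also called darcin, is one of the diverged proteins and is known as a male sex pheromone.

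The members differ greatly in how well a sequenced fragment can tell them apart, and the sequences below show this. Each is the same stretch of 60 coding bases, taken from GENCODE release M21 transcripts on GRCm38, and it is the stretch with the most variable positions, 25 among the 10 members. Capitals mark bases that differ from the most common base among the members at that position. The stretch covers coding bases 212 to 271 in most members, 215 to 274 in Mup11, Mup20 and Mup21, and 224 to 283 in Mup3, counted from 1 at the start codon.
Mup1: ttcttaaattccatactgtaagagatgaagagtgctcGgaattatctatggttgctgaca
Mup2: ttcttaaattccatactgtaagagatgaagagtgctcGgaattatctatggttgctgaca
Mup7: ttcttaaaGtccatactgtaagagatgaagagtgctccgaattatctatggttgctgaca
Mup11: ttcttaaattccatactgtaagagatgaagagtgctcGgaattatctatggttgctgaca
Mup12: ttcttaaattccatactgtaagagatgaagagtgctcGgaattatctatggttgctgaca
Mup17: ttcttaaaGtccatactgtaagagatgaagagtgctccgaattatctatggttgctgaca
Mup19: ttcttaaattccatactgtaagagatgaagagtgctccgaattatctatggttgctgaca
Mup20: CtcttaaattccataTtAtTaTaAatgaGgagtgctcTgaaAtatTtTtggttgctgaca
Mup21: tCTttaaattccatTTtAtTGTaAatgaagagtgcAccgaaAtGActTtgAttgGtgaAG
Mup3: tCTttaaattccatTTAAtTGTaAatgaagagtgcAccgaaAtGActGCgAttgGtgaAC
Mup1, Mup2, Mup11 and Mup12 carry the same 60 bases, as do Mup7 and Mup17, and no more than 1 base sets any of the 7 central copies apart from the most common sequence. Mup20 differs at 11 positions, Mup21 at 18 and Mup3 at 20. Over whole coding sequences, the 7 central members were 98.4 to 99.6% identical to each other, differing at 2 to 9 positions. They belong to a set of 16 genes in the table, linked by identities of at least 97%, in which any 2 genes were 98.2 to 99.8% identical. Mup3 was 82.2 to 83.6% identical to these copies, Mup21 83.7 to 85.0% and Mup20 90.1 to 91.4%, while Mup3 and Mup21 were 94.8% identical to each other. The values of Mup3 and Mup21 therefore rest largely on sequence of their own, and those of Mup20 to a lesser degree. The values of the other 7 members are uncertain wherever fragments were shared among copies. The rule by which the authors' counting assigned shared fragments is not stated in the labels or file headers.

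The libraries differed in traces of neighbouring tissue, and control 3 stood apart from the other controls. Ctrb1, a pancreatic protease precursor, was at 0, 0.245 and 21.6 FPKM in control 1, 2 and 3 and at 20.6, 22.7 and 24.3 FPKM in extract 1, 2 and 3. Prss2 and Cpa1, other pancreatic enzymes, had the same pattern, at most 0.0998 FPKM in control 1 and 2 and at least 3.63 FPKM elsewhere. Acta1, the actin of skeletal muscle, was at 49.7, 38.4 and 0.216 FPKM in control and 69.1, 38.6 and 57.2 FPKM with the extract, and Ckm, muscle creatine kinase, at 0.191 FPKM in control 3 against 15.3 to 25 FPKM in the other libraries. Control 3 was thus like the extract libraries in its pancreatic transcripts and unlike all others in its muscle transcripts. Without control 3, edgeR called the same members as with it apart from Mup11, lost at 0.66 on the log2 scale (adjusted p = 0.0867), and Mup1, gained. The log2 fold changes were then -0.60 for Mup3, -2.30 for Mup21, -3.04 for Mup12, -1.54 for Mup17 and 0.49 for Mup20. The part of neighbouring tissue in the Mup values was not tested.

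With the extract, Mup3, Mup12, Mup17 and Mup21 fell and Mup20 and Mup11 rose, while Mup1, Mup2, Mup7 and Mup19 did not pass the test. All 10 members passed the filter on low counts. edgeR called 6 of them at an adjusted p under 0.05, against 26.9% of the 18071 genes tested. The 4 lower members stand beside a background of 12.8% of genes called lower, and the 2 higher ones beside 14.2% called higher. FPKM values, which are scaled for transcript length and library depth, did not overlap between the groups for those same 6 members, as they did not for 44.6% of all genes tested. The median log2 fold change was -0.315 over the members and -0.0182 over all genes tested. Of all genes called, 52.6% were higher, and on FPKM as deposited, with limma, 39.9% were, or 51.3% after scaling FPKM with TMM factors. None of the 6 called members changed direction under any of the 19 alternative settings.

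**Figure D1:**
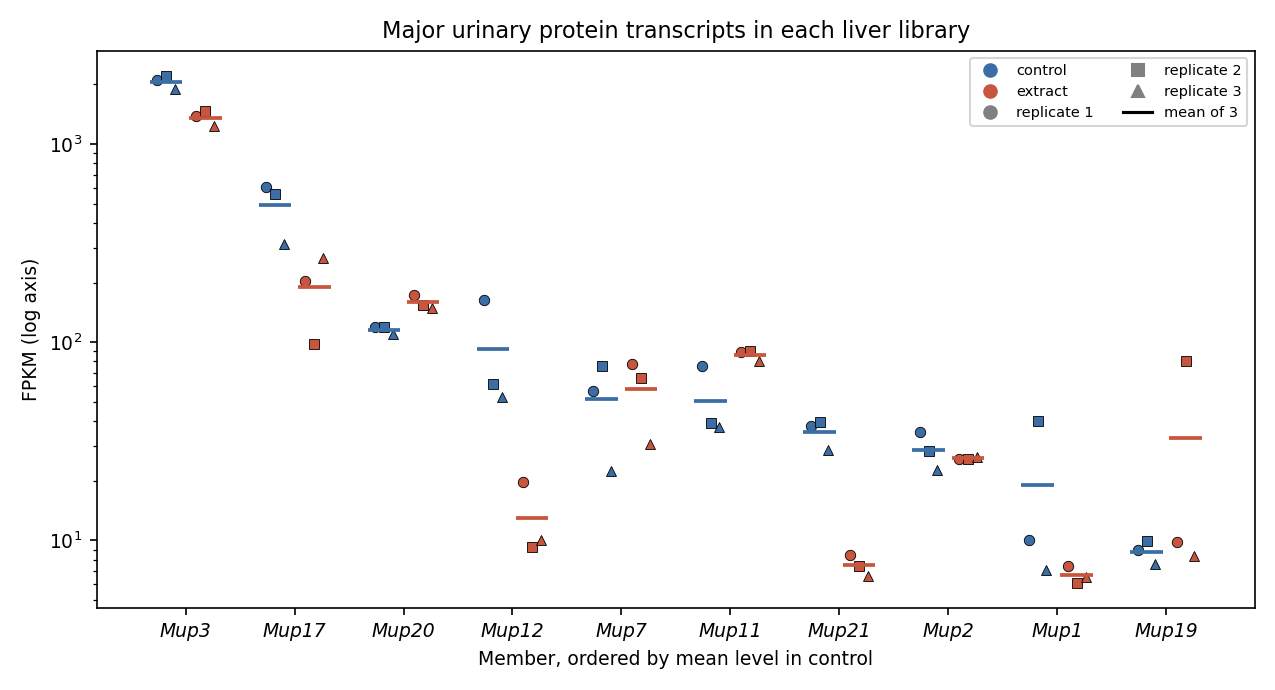
Level of each of the 10 members in every library, in FPKM on a log axis, with control in blue, extract in red, a symbol for each replicate number and a bar at the mean of 3. Mup3 is near 2067 FPKM in control and 1358 with the extract and stands above all others. Mup3, Mup12, Mup17 and Mup21, which are lower, and Mup11 and Mup20, which are higher, separate the groups without overlap. In contrast, 1 library sets the mean of Mup1 in control and of Mup19 with the extract.

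Mup3 was by far the most abundant member. Its gene lies at chr4:62083476-62087342 on the minus strand (GRCm38, as are the coordinates that follow), near the distal end of the cluster. Its level was 2109, 2202 and 1889 FPKM in control 1, 2 and 3, and 1385, 1460 and 1228 FPKM in extract 1, 2 and 3. Every control library was above every extract library, and the means were 2067 ± 160.6 and 1358 ± 118.7 FPKM (SD, n = 3). Mup3 fell by 0.55 on the log2 scale (edgeR, SE 0.068, adjusted p = 0.000878). In the order of all genes by FPKM it stood between places 30 and 35 in control libraries and between 39 and 43 in extract libraries. It remained called under all 19 alternative settings, with log2 fold changes from -0.607 to -0.484.

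Mup21, at chr4:62147932-62150863 on the minus strand, is the last Mup row of the table on chromosome 4. By coding sequence it is the closest relative of Mup3 among the members. It stood at 37.8, 39.8 and 28.5 FPKM in the control libraries and at 8.42, 7.47 and 6.65 FPKM after the extract. The lowest control library was far above the highest extract library. The means were 35.4 ± 6.04 and 7.51 ± 0.886 FPKM (SD, n = 3), and Mup21 fell by 2.17 on the log2 scale (edgeR, SE 0.137, adjusted p = 3.78e-05). Its place in the order of genes by FPKM went from between 902 and 1157 in control to between 3237 and 3852 with the extract. All 19 alternatives called it, at -2.30 to -2.09. Mup3 and Mup21 share most of their sequence, and both were lower with the extract. The difference between their fold changes, -2.17 and -0.55, was not tested.

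Mup20, the gene of the pheromone darcin at chr4:62050234-62054158 on the minus strand, went the other way. Its level was 119, 120 and 109 FPKM in the control libraries and 173, 154 and 150 FPKM in the extract libraries. All extract libraries were above all control libraries, with means of 116 ± 5.62 and 159 ± 12.5 FPKM (SD, n = 3). Mup20 rose by 0.52 on the log2 scale (edgeR, SE 0.0615, adjusted p = 0.000697), and it was called in all 19 alternatives at 0.451 to 0.554. Within the summed FPKM of the 10 members, its share went from 3.95% ± 0.389 to 8.21% ± 0.471, and that of Mup21 from 1.19% ± 0.0565 to 0.387% ± 0.0293 (SD, n = 3). The share held by Mup3 was 70.3% ± 5.25 in control and 70.0% ± 2.76 with the extract, a difference smaller than the spread between libraries.

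The members of the near-identical run were far less even between libraries. Mup17, at chr4:61591929-61595871 on the minus strand, was the second most abundant member, at 604, 559 and 312 FPKM in control and 205, 98.5 and 267 FPKM with the extract. The lowest control library and the highest extract library lay close together, but the groups did not overlap. The means were 491.5 ± 157.0 and 190.0 ± 85.2 FPKM (SD, n = 3), and Mup17 fell by 1.3 on the log2 scale (edgeR, SE 0.365, adjusted p = 0.0322). This call was lost without control 1 (adjusted p = 0.0837), control 2 (0.113), extract 1 (0.0933) or extract 2 (0.0590) in edgeR. It was lost as well without the filter on low counts (edgeR adjusted p = 0.0592) and in limma without a filter (0.102). In all, 12 of 19 alternatives called it.

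Mup12, at chr4:60737383-60741326 on the minus strand, had the lowest log2 fold change of the members. Its level was 164, 61.6 and 52.8 FPKM in control and 19.8, 9.27 and 10.1 FPKM with the extract. The groups were clearly apart, although control 1 stood well above the other control libraries. The means were 92.7 ± 61.6 and 13.1 ± 5.86 FPKM (SD, n = 3), and Mup12 fell by 2.77 on the log2 scale (edgeR, SE 0.484, adjusted p = 0.00443). All 19 alternatives called it, at -3.18 to -2.07, the smallest being the one without control 1, where Mup21 was lower still at -2.12.

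Mup11, at chr4:60658466-60662411 on the minus strand, was the member of the near-identical run that rose. It stood at 75.6, 39.2 and 37.2 FPKM in control and at 89.0, 90.8 and 80.2 FPKM with the extract. The extract libraries lay close together, and control 1 came near them. The means were 50.7 ± 21.6 and 86.7 ± 5.67 FPKM (SD, n = 3), and Mup11 rose by 0.84 on the log2 scale (edgeR, SE 0.247, adjusted p = 0.0387). With 1 library left out the call stood only without control 1 (edgeR adjusted p = 3.89e-05), and the adjusted p reached 0.139 without control 2, 0.0867 without control 3, 0.101 without extract 1, 0.117 without extract 2 and 0.0779 without extract 3. DESeq2 (adjusted p = 0.0639), edgeR without the filter on low counts (0.0672) and limma without a filter (0.120) did not call it.

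The remaining members were not called. Mup7, at chr4:60066469-60070475 on the minus strand, is the first Mup row of the table on chromosome 4. It stood at 56.5, 75.7 and 22.5 FPKM in control and 78.1, 66.3 and 30.6 FPKM with the extract. Replicate 3 was the lowest of its group in both, and the groups overlapped widely. Its log2 fold change was 0.24 (edgeR, SE 0.441, adjusted p = 0.733), and it turned to -0.114 without control 3 and -0.013 without extract 1. Mup2, at chr4:60135932-60154289 on the minus strand, was the member with the nearest group means on the log2 scale, with 35.1, 28.4 and 22.8 FPKM in control and 25.7, 25.7 and 26.5 FPKM with the extract. The extract libraries fell inside the control range. Its log2 fold change was -0.08 (edgeR, SE 0.134, adjusted p = 0.688), or 0.0868 without control 1.

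Single libraries set the means of the last pair. Mup1, at chr4:60498012-60501960 on the minus strand, encodes a protein also known for effects on glucose and lipid metabolism. Its level was 10.1, 40.2 and 7.06 FPKM in control and 7.47, 6.14 and 6.54 FPKM with the extract. Control 2 alone was high, and the other 5 libraries lay between 6.14 and 10.1 FPKM. The log2 fold change of -1.44 (edgeR, SE 0.570, adjusted p = 0.1) was -0.301 without control 2, and Mup1 passed the threshold only without control 3 (edgeR adjusted p = 0.0274). Mup19, at chr4:61778324-61782269 on the minus strand, had instead 1 high extract library, with 8.91, 9.91 and 7.58 FPKM in control and 9.85, 80.1 and 8.39 FPKM with the extract. The library that stood out was extract 2. Its log2 fold change of 1.95 (edgeR, SE 0.793, adjusted p = 0.109) was 0.125 without extract 2.

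In control, the members ranked by mean FPKM from Mup3 through Mup17, Mup20, Mup12, Mup7, Mup11, Mup21, Mup2 and Mup1 to Mup19. Mup3 and Mup17 were each clear of the next member in all libraries, whereas from Mup20 downwards every pair of neighbours in this order overlapped. With the extract, Mup3 again came first, and Mup17 and Mup20 overlapped below it. Mup11 came next, clear of both Mup20 above and Mup7 below. Mup12 passed from the fourth to the eighth place and Mup21 from the seventh to the ninth.

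**Figure D2:**
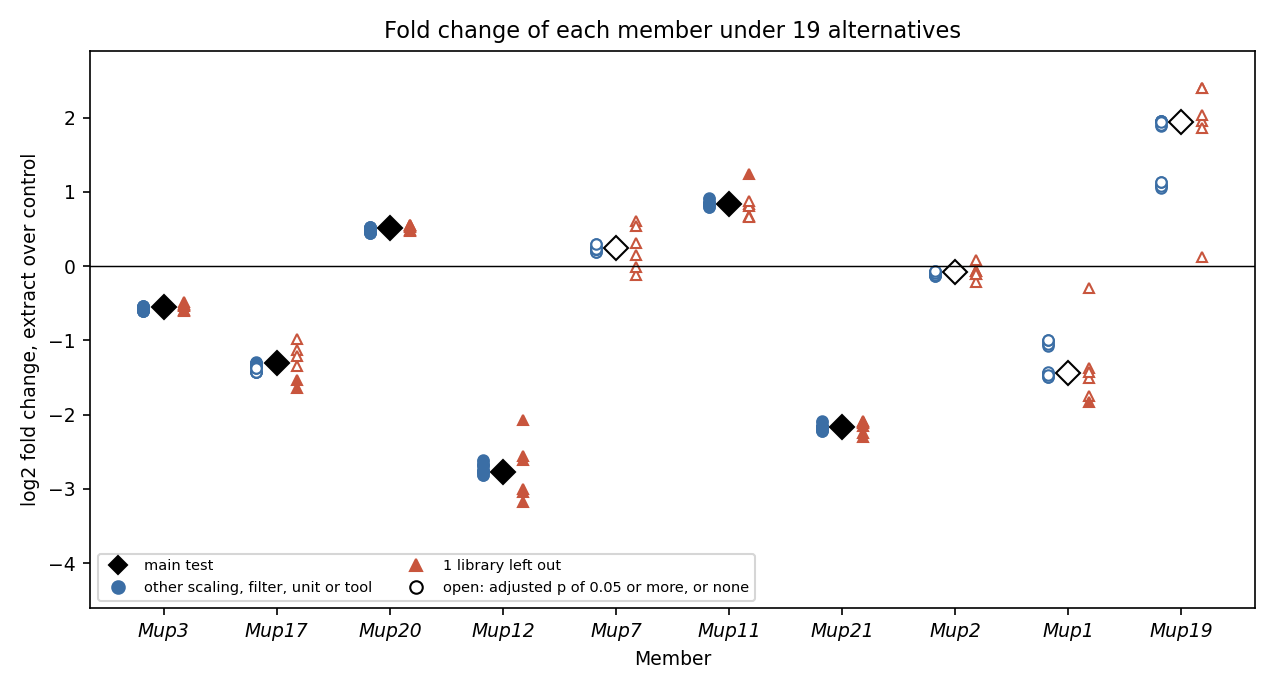
Log2 fold change (extract over control) of each member under the planned test (diamond), under 13 other scalings, filters, units and tools (circles) and with 1 library left out (triangles), filled where the adjusted p was under 0.05. Mup3, Mup20, Mup12 and Mup21 are filled throughout, Mup17 and Mup11 in part, and Mup1 and Mup19 move toward 0 when control 2 or extract 2, in turn, is left out.

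Uneven libraries were found mostly among members with little sequence of their own. Transcripts were divided into all windows of 100 bases, a length chosen for this comparison because no label or header states the read length, and windows found in no other Mup gene of the annotation were counted. They made up 97.1% of the Mup3 transcript, 95.5% of Mup21 and 61.2% of Mup20. In those 3 members the SD was 4.85 to 17.1% of the group mean. They made up 40.6% of Mup17, 22.5% of Mup12, 16.5% of Mup11, 12.9% of Mup7, 12.8% of Mup1, 2.66% of Mup2 and none of Mup19. In those 7 members the SD ran from 1.73% of the mean, for Mup2 with the extract, to 125%, for Mup19 with the extract. Low spread therefore also occurred among the copies, and the part that shared fragments play in the spread was not tested.

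**Figure D3:**
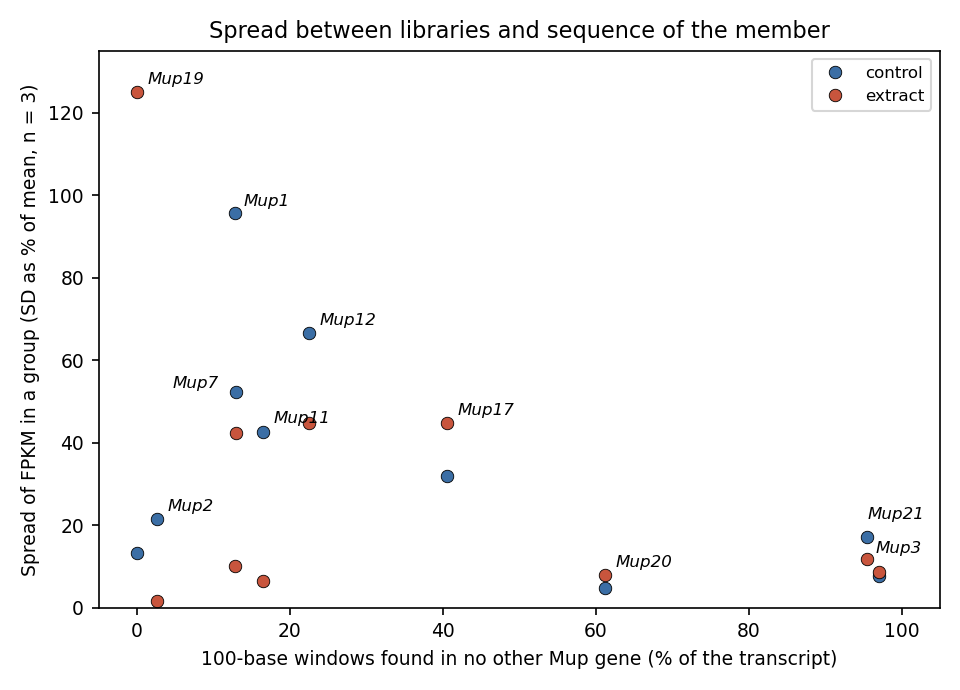
Spread between libraries (SD as a percentage of the mean FPKM, n = 3) against the share of 100-base windows of the transcript found in no other Mup gene, with 1 point per member and group. The 3 members above 60% of windows all stay at or below a spread of 17.1%, and the members below that share range from 1.73 to 125%.

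Because copies can exchange fragments, the family was also summed. The 10 members together came to 3219, 3175 and 2489 FPKM in the control libraries and 2001, 1999 and 1813 FPKM in the extract libraries. All control libraries were above all extract libraries, and control 3, the control library with pancreatic transcripts, lay closest to the extract group. The means were 2961 ± 409 and 1938 ± 108 FPKM (SD, n = 3), a ratio of 0.654 or a log2 ratio of -0.612, which was -0.722 without control 3. As a share of all counts the sum went from 0.372% ± 0.0465 to 0.251% ± 0.0118. Without Mup3, the other 9 members summed to 894.5 ± 264 FPKM in control and 580 ± 39.2 FPKM with the extract, and there the groups overlapped because control 3 stood at 600.1 FPKM. No p-value is given for these sums, since the members were chosen with results of these data known.

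The table holds 29 Mup rows in all, and the sum over them was less different between the groups. Beside the members there are 9 other protein-coding rows, all of them in the near-identical run, and 10 pseudogene rows. The sum of all rows was 3613 ± 541 FPKM in control and 2741 ± 151 FPKM with the extract, a log2 ratio of -0.399. On TMM-scaled CPM, the groups of this wider sum touched, since control 3 stood at 3692 and extract 2 at 3700. Within the 16 near-identical copies the sum was 1612, 1467 and 917 FPKM in control and 1035, 1195 and 1092 FPKM with the extract. Here the groups overlapped, with control 3 lowest of all, and the log2 ratio of the means was -0.266, or -0.475 without control 3 and -0.106 without control 1. On TMM-scaled CPM, with all libraries, the ratio was -0.138. The 7 members among these copies came to 743 ± 253 and 414 ± 32.0 FPKM, whereas the 9 copies that are not members came to 589 ± 116 and 694 ± 113 FPKM (SD, n = 3). The sum was lower for the 7 members and overlapped between the groups for the other 9 copies, and how far fragments moved between the rows was not tested.

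**Figure D4:**
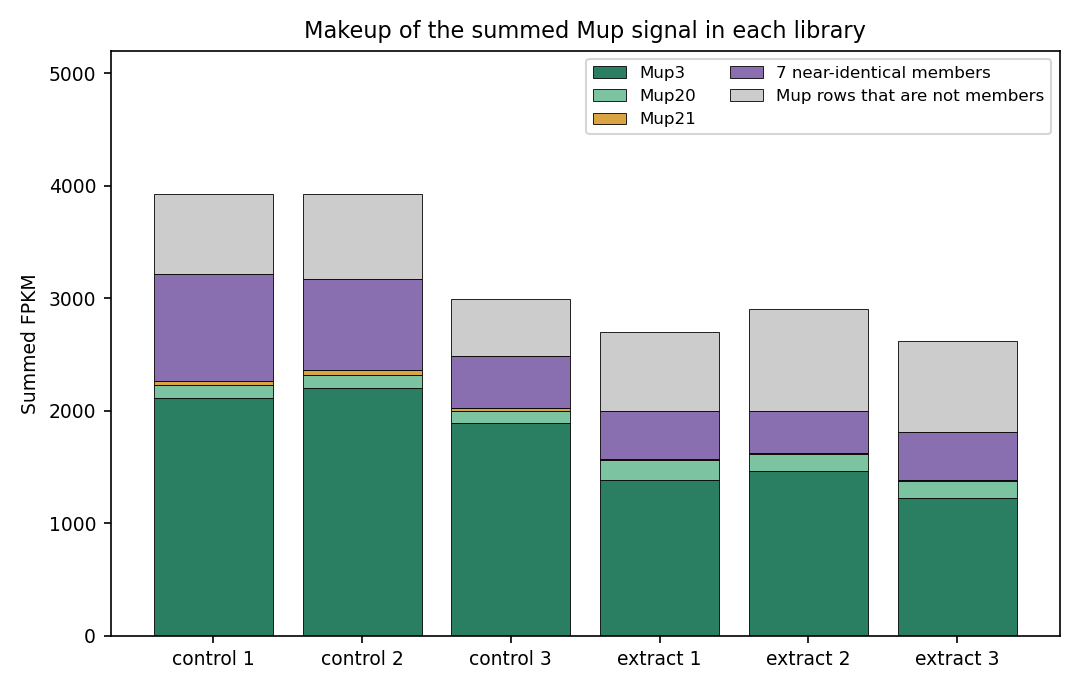
Summed FPKM of the Mup rows in each library, stacked into Mup3, Mup20, Mup21, the 7 near-identical members and the Mup rows that are not members. Mup3 is the largest block in every library, the 10 members reach 2489 to 3219 FPKM in control and 1813 to 2001 FPKM with the extract, and the block of other rows overlaps between the groups.

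Among the 9 other protein-coding rows, 1 rose, 1 fell and 7 were not called, a share near the 26.9% called over all genes tested, and their median log2 fold change was 0.00249. Mup10 rose from 54.3 ± 8.49 to 104.5 ± 40.2 FPKM (log2 fold change 1.0, edgeR SE 0.235, adjusted p = 0.0158), with the call lost without control 2 (0.0624) and in limma without a filter (0.105). Mup15 fell from 63.2 ± 47.0 to 18.7 ± 2.83 FPKM (log2 fold change -1.69, edgeR SE 0.471, adjusted p = 0.0314). The Mup15 call was lost without control 2 (log2 fold change -0.936, edgeR adjusted p = 0.0695), without extract 1 (0.119), extract 2 (0.0914) or extract 3 (0.0924). It was lost too in edgeR without the filter on low counts (0.0602) and in all 5 limma fits (0.0681 to 0.164), 10 of 19 alternatives in all. Mup22, the most abundant of these rows, stood at 201.7 ± 81.4 and 313.9 ± 61.4 FPKM and was not called (edgeR adjusted p = 0.0791). Mup8, Mup9, Mup13, Mup14, Mup16 and Mup18 were not called either. With 1 library left out, edgeR called Mup22 without control 1 (log2 fold change 1.08, adjusted p = 0.00186). Without control 3 edgeR called Mup8 (-1.40, adjusted p = 0.0356), and without control 2 Mup18 (0.713, 0.0450). Without extract 3 edgeR called Mup9 (2.54, adjusted p = 0.00181) and Mup16 (-4.75, 7.5e-05). Mup13 and Mup14 passed under no alternative. Jumps of single libraries occurred in these other rows too: Mup16 was at 2.20, 2.80 and 87.3 FPKM in extract 1, 2 and 3, where Mup9 was at 22.7, 19.6 and 0.801 FPKM. Extract 3 was thus the highest of its group for Mup16 and the lowest for Mup9.

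Of the 10 pseudogene rows, 9 were above 0 in some library and 2 could be tested. Mup-ps19, which lies between Mup19 and Mup20, rose evenly from 49.9 ± 4.57 to 89.8 ± 6.84 FPKM (SD, n = 3; log2 fold change 0.91, edgeR SE 0.0778, adjusted p = 0.000144). Mup-ps18 was listed at 0 in 4 libraries and at 38.0 FPKM in control 2 and 56.7 FPKM in extract 3. Mup-ps13 was tested and not called, at 0.331 ± 0.15 and 0.186 ± 0.110 FPKM. Mup-ps17 stayed at or below 0.354 FPKM, Mup-ps21 reached 1.09 FPKM in control 2 alone, and Mup-ps6, Mup-ps8, Mup-ps10 and Mup-ps20 were each above 0 in 1 library, at up to 0.187 FPKM. Mup-ps22 lies on chromosome 11 and was listed at 0 throughout.

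**Figure D5:**
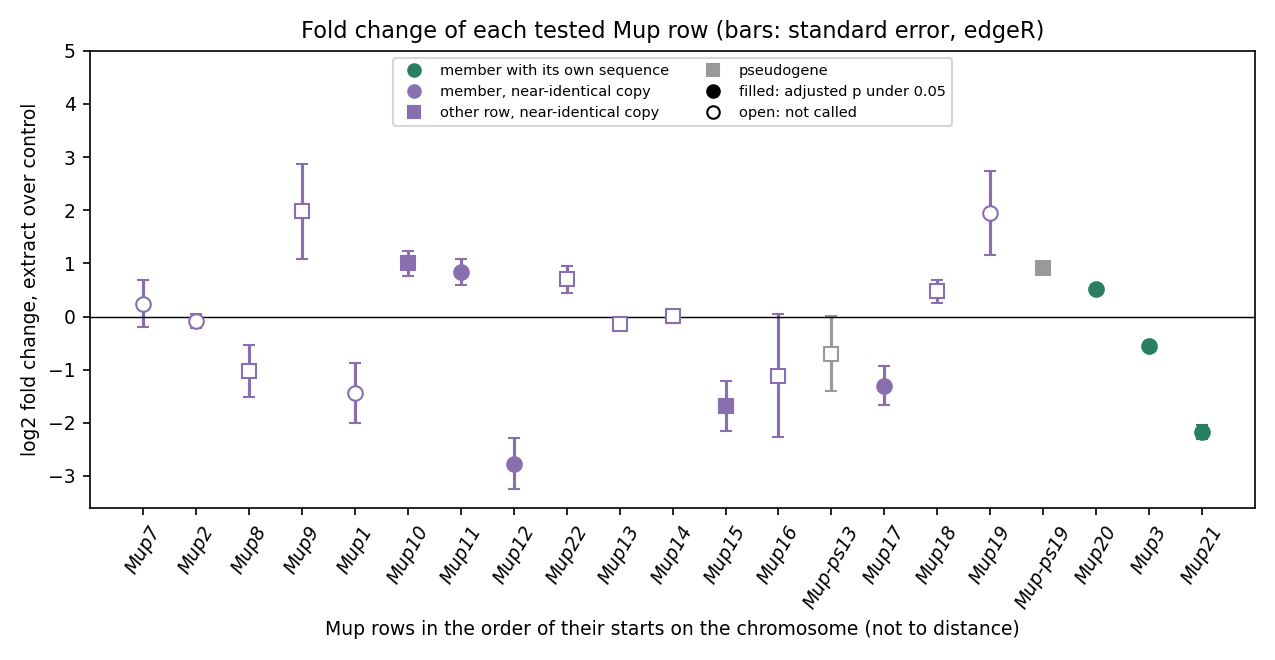
Log2 fold change (extract over control, with its standard error from edgeR) of the 21 tested Mup rows in the order of their starts on chromosome 4, filled where the adjusted p was under 0.05. The outer genes Mup20, Mup3 and Mup21 at the right lie at 0.52, -0.55 and -2.17 with standard errors of 0.0615 to 0.137, and the near-identical copies lie on both sides of 0 with standard errors of 0.103, for Mup13, to 1.15, for Mup16.

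Mup4, Mup5 and Mup6 have coding sequences in the annotation but no row in the table. The span of the 28 Mup rows on chromosome 4 is chr4:60066469-62150863, which is 2.08 Mb. Of 41 tested genes within 2 Mb of its ends, 9 were called higher and 4 lower, a share near the 26.9% called over all genes tested, with a median log2 fold change of -0.0218. The 3 with the smallest p all rose: Hdhd3, a hydrolase-like gene, by 0.74 on the log2 scale (edgeR adjusted p = 0.000263), Alad, an enzyme of haem synthesis, by 0.39 (0.000348), and Ugcg, which makes glucosylceramide, by 0.56 (0.000701).

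For genes whose start site RefSeq gives, the upstream sequence was compared. RefSeq (GRCm38.p6) held a promoter for 7 of the 10 members, and not for Mup1, Mup12 and Mup20. The 250 bases before the RefSeq start are printed for the members that fell, on the minus strand, from chr4:61595833-61596082 for Mup17, chr4:62087318-62087567 for Mup3 and chr4:62150842-62151091 for Mup21. The last bases of each lie within the gene as the deposited table draws it, which starts further upstream. Capitals mark matches to ATCAAT, the core bound by ONECUT factors, and to TGTTCT, a short site of steroid hormone receptors. They also mark TATATAAG, the letters of a TATA box, wherever it lies before the RefSeq start.
Mup17: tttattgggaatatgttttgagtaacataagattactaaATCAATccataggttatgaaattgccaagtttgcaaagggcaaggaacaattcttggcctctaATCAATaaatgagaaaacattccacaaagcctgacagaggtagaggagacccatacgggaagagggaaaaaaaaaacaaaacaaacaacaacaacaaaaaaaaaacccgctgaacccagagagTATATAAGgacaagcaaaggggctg
Mup3: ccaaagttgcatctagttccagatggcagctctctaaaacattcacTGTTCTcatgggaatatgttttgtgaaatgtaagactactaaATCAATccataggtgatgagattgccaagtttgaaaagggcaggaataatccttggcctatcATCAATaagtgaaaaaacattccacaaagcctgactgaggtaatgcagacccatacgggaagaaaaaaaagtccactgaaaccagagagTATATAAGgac
Mup21: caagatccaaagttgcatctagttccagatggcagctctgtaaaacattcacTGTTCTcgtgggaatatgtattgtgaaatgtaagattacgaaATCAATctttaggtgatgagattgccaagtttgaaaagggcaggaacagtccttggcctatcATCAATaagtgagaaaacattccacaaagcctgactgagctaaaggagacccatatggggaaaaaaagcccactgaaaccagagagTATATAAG
The upstream stretches of Mup3 and Mup21 were 92.3% identical, and those of Mup17 and Mup3 74.6%. In the whole window of 250 bases before to 50 after the start, searched on both strands, ATCAAT occurred at least 2 times in 7 of 7 members and in 0.694% of all 32851 promoters. TGTTCT occurred in Mup3 and Mup21, 204 and 198 bases upstream, and in 19% of all promoters. TATATAAG occurred in 6 of 7 members and in 1.01% of all promoters, starting 25, 27 and 31 bases upstream in Mup17, Mup2 and Mup19. It started 11, 8 and 2 bases upstream in Mup3, Mup21 and Mup11, so its distance to the RefSeq start varied. Mup7 had no match, but its ATCAAT pair lay 82 and 19 bases upstream, against 211 and 148 in Mup17. Relative to these matches the RefSeq start of Mup7 lies further upstream, and the matching stretch falls outside its window. The STAT5 motif TTCNNNGAA was not among the letters of these 7 windows, and 8.30% of all promoters hold it. The matches do not overlap in the 3 stretches printed, the motifs were chosen after the sequences had been read, and near-identical copies are not independent promoters.

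Of 18 tested genes of the growth hormone pathway, which controls Mup transcription, 7 rose, 2 fell and 9 did not pass the test, with a median log2 fold change of 0.116. Over all genes tested, 14.2% were called higher and 12.8% lower, and the counts of the lists that follow stand beside the same shares. Ghr, the growth hormone receptor, stood at 33.5, 32.3 and 32.0 FPKM in control and 41.5, 43.3 and 38.4 FPKM with the extract, and rose by 0.39 (edgeR adjusted p = 0.000637). Stat5b, the main carrier of the signal in liver, was at 7.56 ± 0.700 and 7.90 ± 0.504 FPKM and was not called (0.274). Cish and Socs2, feedback inhibitors induced by STAT5, rose (edgeR adjusted p = 4.18e-06 and 8.39e-05). Cish was at 1.65, 1.67 and 1.96 FPKM in control and 7.50, 8.03 and 7.73 FPKM with the extract, and Socs2 at 1.31 ± 0.0693 and 3.19 ± 0.405 FPKM. Bcl6, a repressor that binds many STAT5 sites, fell from 6.96 ± 0.600 to 2.44 ± 0.225 FPKM, and Igf1, the circulating growth factor, rose by 0.19 (0.00420). Onecut1, a hepatocyte factor of the ONECUT family that recognises ATCAAT, was at 1.37, 0.721 and 1.36 FPKM in control and 10, 11 and 6.12 FPKM with the extract. It rose by 3.03 on the log2 scale (edgeR, SE 0.295, adjusted p = 0.000260). It was singled out after its values were seen.

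Of 30 other nuclear receptors and liver transcription factors, 18 rose and 6 fell, with a median of 0.243. Foxa2 and Prox1, factors of liver development, rose by 1.32 and 0.96 on the log2 scale (edgeR adjusted p = 1.98e-05 and 3.80e-05). Among the hormone receptors known to act on Mup genes, Nr3c1, the glucocorticoid receptor, rose from 6.84 ± 0.359 to 9.57 ± 0.408 FPKM (edgeR adjusted p = 0.000379). Thra and Thrb, the thyroid hormone receptors, moved apart, Thra falling by 0.42 (0.0409) and Thrb rising by 0.25 (0.0264). Nr3c1, Thra and Thrb were singled out after their values were seen, and the part of Onecut1 and of these receptors in the Mup levels was not tested.

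Other genes whose liver expression is known to differ between the sexes were called in both directions. Of 27 tested male-biased genes, 13 rose and 7 fell, with a median of 0.227, and of 32 female-biased genes, 19 rose and 5 fell, with a median of 0.542. Hsd3b5, a male-biased steroid dehydrogenase, was at 17.3, 15.9 and 9.86 FPKM in control and 2.60, 3.71 and 2.66 FPKM with the extract, a pattern close to that of Mup21. Gstp1, a male-biased glutathione transferase, rose from 158 ± 8.57 to 295 ± 13.8 FPKM, and Nudt7, a peroxisomal hydrolase, from 26.3 ± 4.06 to 51.0 ± 0.911 FPKM. Sult3a2, a female-biased sulfotransferase, rose from 0.521 ± 0.0869 to 14.4 ± 4.41 FPKM, and Slc22a27, a transporter, from 2.54 ± 0.405 to 10.4 ± 1.07 FPKM. Cyp39a1, an enzyme of oxysterol metabolism, rose from 7.08 ± 0.674 to 16.2 ± 0.5 FPKM. As a check on library makeup, chosen after the values were seen, Xist, the RNA of the inactive X chromosome, was between 34.5 and 40 FPKM in all 6 libraries. The Y-linked genes Ddx3y, Uty, Eif2s3y and Kdm5d did not exceed 0.284 FPKM. Such values are those of female tissue in both groups, although the labels do not give the sex.

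Among 12 other lipocalin genes tested, 1 rose and 4 fell, with a median of -0.174. Lcn2, an iron-scavenging protein also made by neutrophils, was at 269, 307 and 401 FPKM in control and 167, 170 and 159 FPKM with the extract, and fell by 0.92 on the log2 scale (edgeR adjusted p = 0.00172). It also belongs to the list of neutrophil markers. Orm3, an acute-phase plasma protein, fell from 87.3 ± 9.48 to 49.1 ± 4.19 FPKM, and Ptgds, which makes prostaglandin D, from 4.62 ± 0.390 to 1.82 ± 0.337 FPKM. The gene that rose was Orm2, from 823 ± 111 to 1010 ± 30.0 FPKM (edgeR adjusted p = 0.0204). C8g fell too, from 112 ± 10.1 to 84.8 ± 4.99 FPKM (edgeR adjusted p = 0.0102). Rbp4 and Ambp, abundant lipocalins that like the major urinary proteins are secreted by hepatocytes, were not called (edgeR adjusted p = 0.0729 and 0.106). Orm2, C8g, Rbp4 and Ambp were named beyond the 3 genes of smallest p, with their values known. Lcn8 was listed at 0 in all libraries. Of 30 secreted plasma proteins, 4 rose and 7 fell, with a median of 0.0315. Serpina3k, a protease inhibitor, rose from 2330 ± 162 to 3850 ± 199 FPKM, Ahsg, the plasma protein fetuin-A, rose from 3270 ± 156 to 3930 ± 92.4 FPKM, and Apoa2, an apolipoprotein of HDL, fell from 5920 ± 351 to 4170 ± 69.7 FPKM. Abundant secreted products of the liver thus differed in both directions beside the fall of Mup3.

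The genes with the profile most like a Mup profile were found by the root mean square difference of centred log2(FPKM + 0.5) values over the 6 libraries, among 4872 genes with a mean of at least 5 FPKM. For the sum of the 10 members they were C2cd2l (0.0473), Gbp2b, an interferon-induced GTPase (0.0671), Paxx, a DNA repair factor (0.0689), BC023105 (0.0728) and Tmsb10, an actin-binding peptide (0.0756). For Mup21 they were Rps4l, a ribosomal protein gene (0.155), Arrdc2, an arrestin-like gene (0.156), Hsd3b5 (0.211), Ddit4, an inhibitor of mTORC1 (0.243), and Tcim (0.251). Rps4l was at 13.3 ± 1.59 and 2.84 ± 0.208 FPKM, and Arrdc2 was at 17.1 ± 0.613 and 3.78 ± 0.546 FPKM.

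The libraries held 51219533 to 61432016 counts. All 12 hepatocyte markers were above 0 in the table, with summed levels of 40400 to 49500 FPKM in control and 40200 to 41200 FPKM with the extract, and 4 of them rose and 5 fell. Tat, which breaks down tyrosine, fell by 0.76 on the log2 scale, and Cyp2e1, an ethanol-metabolising cytochrome, rose by 0.33. Markers of other cells moved with the treatment. Red cell markers, 7 of 7 lower, summed to 1270 to 1620 FPKM in control and 198 to 236 FPKM with the extract, and neutrophil markers, 9 of 10 lower, to 387 to 458 and 173 to 181 FPKM. Kupffer cell markers, 11 of 11 lower, summed to 496 to 522 and 297 to 313 FPKM, lymphoid markers, 8 of 11 lower, to 80.7 to 131 and 33.8 to 43.2 FPKM, and sinusoidal endothelial markers, 8 of 10 lower, to 67.9 to 74.4 and 51.0 to 54.4 FPKM. Lcn2, at 269 to 401 FPKM in control and 159 to 170 FPKM with the extract, made up most of the neutrophil sums. The median log2 fold change over the 10 neutrophil markers was -3.21. Igkc, at 75.1 to 123 and 30.8 to 39.5 FPKM, made up most of the lymphoid sums. Of the bile duct markers 1 of 7 was called lower, with sums of 36.5 to 49.3 and 29.3 to 36.7 FPKM and a median log2 fold change of -0.776, and of the stellate cell markers 2 of 8 were called higher and 1 lower. Markers of neighbouring tissues, 0 of 10 called at an adjusted p under 0.05 and 1 at an unadjusted p under 0.05, summed to 48.3 to 80.3 FPKM in control and 106 to 143 FPKM with the extract, with a median of 0.959 and the uneven controls given above. None of these markers was at 0 in all libraries. Fewer cells of a type and less RNA per cell cannot be told apart in bulk tissue, and the part of cell makeup in the Mup differences was not tested.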

How the data were processed

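Oligo(dT) beads were used to prepare the 6 liver libraries, per the labels' protocols. Each table column was matched to its library by the group code and number shared with the sample title, and 6 further columns of per-sample values that match no sample were not used. The authors deposited estimated counts per gene, which are whole numbers, and FPKM, scaled for length and depth, per the file headers. Tools listed in the submitters' processing notes, without their roles, are StringTie 1.3.4d, HISAT2 2.0.4, edgeR and cutadapt 1.9. No genome build is named there. All 10 members have the coordinates of GENCODE release M21 on GRCm38. Low counts peak at 4, so 1 read pair may add about 4 counts.

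The whole table of counts went through edgeR 4.0.16, run in R 4.3.3 (filterByExpr, TMM, quasi-likelihood test, two-sided, Benjamini-Hochberg over 18071 genes, threshold 0.05). Alternatives used other scalings, no filter, DESeq2 1.42.0, limma 3.58.1 on log2(FPKM + 0.5, 0.1 or 1), counts divided by 4, the replicate number as a block, and each library left out. Coding sequences were aligned with MAFFT 7.526 and Biopython 1.88. The members and gene lists were chosen with earlier results of these data known. Named are all members, other Mup rows above 0, up to 3 genes per list or neighbourhood by smallest p, Ghr, Stat5b, Cish, Socs2, Bcl6 and Igf1, and the 5 genes most like each profile; examples are given from the marker lists. Some genes that this rule names are not reported here.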

Additional observations from a re-analysis of the deposited data

How the results depend on the processing

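Mup3, Mup12, Mup20 and Mup21 kept their direction and their call under all 19 alternatives. Every alternative starts from the deposited values per gene. None can therefore show how fragments were split among the near-identical copies, to which Mup12 belongs. The number of members called higher, 2 in the reported test, was 1 without a filter on low counts, with DESeq2 and with unfiltered limma on FPKM, where Mup20 remained, and 1 to 2 with each library left out. The number called lower, 4 in the reported test, ran from 3 to 5 with each library left out, being 3 without control 1, control 2, extract 1 or extract 2 and 5 without control 3. The log2 ratio of the family sum in FPKM was -0.612 over the members and -0.399 over all Mup rows. On TMM-scaled CPM it was smaller in size, at -0.518 and -0.332. Over the near-identical copies, a sum added after the data were seen, the ratio was -0.266 in FPKM and -0.138 on TMM-scaled CPM. Over the 7 members among them it was -0.845 in FPKM. Mup7 reversed to -0.114 without control 3 and -0.013 without extract 1, and Mup2 to 0.0868 without control 1, none of them called (0.614 at the highest for Mup7, -0.218 at the lowest for Mup2, with a library left out). Mup14, at 0.0025 in the reported test and never called, was -0.0472 on library size only, -0.0421 with upper quartile factors, -0.056, -0.0568 and -0.0552 in limma with pseudocounts of 0.5, 0.1 and 1, -0.056 in limma without a filter, -0.000693 with TMM factors on FPKM, -0.00563 with counts divided by 4, and from -0.111 to 0.123 with a library left out (-0.0158 without control 1, -0.0897 without control 3, -0.111 without extract 2). The cause was not tested. Over all genes, 4870 were called, and 3237 without extract 2. With the replicate number as a block, edgeR called 3746 genes, with 2 members higher and 3 lower, the difference being Mup17 (adjusted p = 0.0673). Same-numbered libraries did not deviate together (correlations of -0.148, -0.0203 and -0.0981 over genes), and differently numbered ones ran from -0.109 to 0.19. With 3 libraries per group, these correlations cannot decide whether the numbers pair the samples. A value of a few counts may come from 1 read pair, and among the Mup rows such values occurred only in pseudogene rows. The size of this step also bears on the filter and on the test of all genes. With counts divided by 4, edgeR tested 14700 genes and called 5109, against 18071 tested and 4870 called in the reported test. The share of all genes called that stands beside the Mup counts therefore depends on this setting.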
